A study of Mus musculus with 4 samples.

Results

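The genes described here are 10 of the 32285 genes counted in CD45+ cells of EO771 mammary tumors: the genes that make, load and regulate the major histocompatibility complex (MHC) class I molecule. They were taken by name and not by their values. H2-K1 and H2-D1 encode the classical class I heavy chains, H2-Q7 and H2-T23 encode non-classical heavy chains, and B2m encodes the light chain beta-2 microglobulin that all of them bind. Tap1 and Tap2 encode the paired chains of the transporter that carries peptides into the endoplasmic reticulum, and Tapbp encodes tapasin, which bridges that transporter and the empty class I molecule. Psmb8 encodes a catalytic subunit of the immunoproteasome, which cuts peptides suited for class I, and Nlrc5 encodes the transactivator of class I promoters. All 10 genes had UMIs (unique molecular identifiers, each standing for 1 captured RNA molecule) in every cell type tested.

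MHC class I shows peptides from the inside of a cell to CD8+ T cells, and natural killer cells sense its loss. Most nucleated cells carry it, interferons raise it, and dendritic cells raise it further when they mature and move to lymph nodes. A class I molecule leaves the endoplasmic reticulum only once its heavy chain, light chain and peptide are together, so the genes are usually described as 1 pathway. Tumors that lose heavy chain, light chain or transporter can escape CD8+ T cells.

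The cells came from female mice that had been injected in the mammary gland with EO771, a mouse mammary tumor cell line, and whose tumors were taken at 1.5 cm3. Both groups carried floxed Csf1r, the gene of the receptor for macrophage colony-stimulating factor. The 2 Csf1rfl/fl mice had no Cre and served as controls, and the 2 Lyve1CreCsf1rfl/fl mice also carried Cre driven by Lyve1, which deletes Csf1r in cells that express the hyaluronan receptor LYVE-1, among them a subset of macrophages. Lymphatic endothelial cells also express Lyve1, the tumors all came from the same cell line, and the age of the mice at sorting is not given in the sources used here. Viable CD45+ cells were sorted, marked by hashtag antibodies and captured in 2 Chromium runs, each holding 1 tumor of each genotype. Values for single tumors are given throughout in the order Csf1rfl/fl run 1, Csf1rfl/fl run 2, Lyve1CreCsf1rfl/fl run 1 and Lyve1CreCsf1rfl/fl run 2.

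Of 53361 barcodes, the 28429 cells that the authors kept were used, with 8699, 7786, 7173 and 4771 cells per tumor. Totals lay between 27686362 and 56715743 UMIs per tumor and medians between 3721 and 4657 UMIs per cell. Marker genes placed 21944 cells in 1 type each, and 14 types had at least 20 cells in every tumor and were tested. B cells, with 31 cells of which 23 came from the Lyve1CreCsf1rfl/fl tumor of run 2, gamma delta T cells, with 119 cells, and T cells outside the named subsets were described only. Cells with markers of more than 1 lineage (3105 cells, of which Scrublet called 75.9% doublets) were left out. In the tumors, 60 kept barcodes occurred in both runs, and in the Csf1rfl/fl tumor of run 1 the winning hashtag of 7.05% of cells was less than 3 times as frequent as the losing one, against at most 1.53% in the other tumors. The sort was for CD45, yet 209 cells of very high depth had CD45 (Ptprc) at only 0.171, 0.161, 0.170 and 0.191 UMIs per 10000, against at least 1.85 in any tumor of any other fitted type. They carried markers of tumor or stromal cells, and in 192 of them the UMIs of matrix genes exceeded those of keratins and Epcam, so they are called tumor or stromal cells here. Csf1r, the deleted gene, stood in C1q macrophages at 1.703, 2.319, 1.404 and 1.555 UMIs per 10000. It was at 2.297, 2.326, 1.475 and 1.345 in Ly6c2-high monocytes and at 1.534, 1.905, 1.206 and 1.913 in Arg1 macrophages. These UMIs may come from any part of the gene, deleted or not. Lyve1, which drives the Cre, had at most 0.0334 UMIs per 10000 in any tumor of C1q macrophages, Arg1 macrophages or monocytes.

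Of the 10 genes, 8 lie on chromosome 17 of mm10 within 2.12 megabases, from Tapbp (33915899 to 33929292, plus strand) to H2-T23 (36029773 to 36032855, minus strand). H2-K1 (33996017 to 34000347, minus strand) is the next member after Tapbp. Further along lie Tap1 (34187553 to 34197225), Psmb8 (34197721 to 34201454) and Tap2 (34203527 to 34216321), which follow each other on the plus strand. H2-D1 (35262730 to 35267499) and H2-Q7 (35439155 to 35443773) lie further on, both on the plus strand. B2m is on chromosome 2 (122147686 to 122153083, plus strand) and Nlrc5 on chromosome 8 (94434356 to 94527272, plus strand). The counts are of whole genes, with most reads near the 3′ end. Class I genes are near copies of each other and reads that matched several genes were not counted. Of all 90-base words in the last 500 bases of their transcripts, 0.2% of those of H2-K1, none of the 812 of H2-D1, 4.7% of those of H2-Q7 and 13.4% of those of H2-T23 also occurred in another gene.

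The promoters of the heavy and light chain genes are shown because H2-D1 had another order over cell types than H2-K1 and H2-Q7. The letters before the start of these 3 genes were similar, and a link between them and the order was not tested. Printed here are the 250 bases before the RefSeq start site (GRCm38.p6, the assembly of mm10), written 5′ to 3′ on the strand of the gene. The gene coordinates above are from another annotation, GENCODE, whose first bases can differ. The window of H2-D1 thus lies within the span given for that gene, and that of H2-T23 overlaps its span. Capitals mark 4 motifs searched on both strands: the kappa B core GGGATTCCC, the interferon response core TTTCNNTTC, the site alpha core TGACG and the CCAAT box (CCAAT, or ATTGG on the other strand). None of the motifs overlapped in these windows, and their letters were chosen after the windows had been read.
H2-K1, chr17:34000334-34000583, minus strand: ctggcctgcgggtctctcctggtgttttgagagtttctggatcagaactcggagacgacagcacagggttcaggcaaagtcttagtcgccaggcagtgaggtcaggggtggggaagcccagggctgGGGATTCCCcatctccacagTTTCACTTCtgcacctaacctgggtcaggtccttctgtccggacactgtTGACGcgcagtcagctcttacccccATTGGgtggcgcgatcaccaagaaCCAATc
H2-D1, chr17:35262844-35263093, plus strand: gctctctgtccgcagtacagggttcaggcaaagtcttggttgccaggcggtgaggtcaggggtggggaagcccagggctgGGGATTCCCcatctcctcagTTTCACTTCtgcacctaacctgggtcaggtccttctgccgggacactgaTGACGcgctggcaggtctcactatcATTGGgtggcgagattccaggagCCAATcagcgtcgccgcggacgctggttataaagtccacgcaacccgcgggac
H2-Q7, chr17:35438905-35439154, plus strand: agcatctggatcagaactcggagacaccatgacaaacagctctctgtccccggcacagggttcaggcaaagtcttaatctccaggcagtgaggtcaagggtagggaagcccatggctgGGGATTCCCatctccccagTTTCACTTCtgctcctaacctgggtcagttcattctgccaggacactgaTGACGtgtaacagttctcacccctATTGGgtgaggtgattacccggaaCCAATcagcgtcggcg
H2-T23, chr17:36032702-36032951, minus strand: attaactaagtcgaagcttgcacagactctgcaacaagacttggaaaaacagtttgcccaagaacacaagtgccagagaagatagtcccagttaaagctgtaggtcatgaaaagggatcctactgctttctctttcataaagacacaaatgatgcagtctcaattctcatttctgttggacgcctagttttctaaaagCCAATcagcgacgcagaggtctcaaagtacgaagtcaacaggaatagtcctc
B2m, chr2:122147437-122147686, plus strand: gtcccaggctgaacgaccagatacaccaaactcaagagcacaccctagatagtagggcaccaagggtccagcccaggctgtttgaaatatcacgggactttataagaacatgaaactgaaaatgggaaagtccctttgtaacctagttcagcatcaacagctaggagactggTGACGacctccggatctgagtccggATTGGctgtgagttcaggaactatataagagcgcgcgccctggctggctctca

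H2-K1, H2-D1 and H2-Q7 held all 4 motifs in the same order. Of the 32851 windows of all genes, 0.3% held the kappa B core, 6.31% the interferon response core, 17.77% the site alpha core and 33.85% the CCAAT box. All 4 were held by 4 windows (0.012%), those of H2-K1 (2 start sites), H2-D1 and H2-Q7. Since the letters were chosen from these windows, this share is a description and no support. By these exact letters, B2m matched the site alpha core and the CCAAT box, and H2-T23 matched only the CCAAT box. Other spellings or spacings of the motifs were not searched, so a window without a match may still hold them. H2-K1 was identical to H2-D1 at 89.6% of 192 aligned bases and to H2-Q7 at 86.3% of 190. H2-D1 was identical to H2-Q7 at 84.6% of 214. Among the other members, the windows of Tap1 (site alpha core and CCAAT box), Tapbp (CCAAT box) and Psmb8 (no motif) were matched. A match is a description of letters and not of a bound site, and the windows were not measured in these cells.

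Levels are given as UMIs of a gene per 10000 UMIs of a cell type in a tumor. All 10 genes together were highest in mature dendritic cells, with 129, 133, 121 and 137 UMIs per 10000 (129.9 ± 6.85, mean ± SD, n = 4 tumors). These cells, marked by Ccr7 and Fscn1, are the migratory form of dendritic cells, and all 4 of their values lay above those of the next type. Plasmacytoid dendritic cells followed at 114.7 ± 4.40, C1q macrophages at 111.1 ± 8.20, regulatory T cells at 108.2 ± 4.33 and conventional CD4 T cells at 103.1 ± 10.3. Natural killer cells (96.4 ± 3.23), Ly6c2-high monocytes (91.8 ± 1.13) and effector CD8 T cells (88.6 ± 2.93) formed the middle. Arg1 macrophages (79.7 ± 3.97), Tcf7-positive T cells (76.6 ± 3.86), Cd209a dendritic cells (70.5 ± 7.81), neutrophils (62.5 ± 3.15) and cDC1, the dendritic cells that present antigen to CD8+ T cells (53.8 ± 5.02), were lower. Tumor or stromal cells were lowest, with 43.5, 40.0, 39.0 and 38.4. With each cell thinned to 1500 UMIs, the mean stayed highest in mature dendritic cells (138.2) and lowest in tumor or stromal cells (44.0). Regulatory T cells (126.6) then came before C1q macrophages (118.1) and plasmacytoid dendritic cells (114.0). The top step then overlapped, with 128.5 as the lowest mature and 133.8 as the highest regulatory T cell value. It also overlapped with ribosomal, mitochondrial, Malat1 and Gm42418 UMIs left out of the denominator (166.0 against 171.0 in plasmacytoid dendritic cells).

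Only 3 of the 13 steps in this order separated neighbours whose 4 tumors did not overlap: from mature to plasmacytoid dendritic cells, from effector CD8 T cells to Arg1 macrophages, and from cDC1 to tumor or stromal cells. The means of the ends of the order differed 3.23-fold. The order is of shares of a cell's RNA and not of molecules per cell. Tumor or stromal cells held a median of 47311 UMIs per cell and 203 UMIs of the 10 genes per cell, whereas neutrophils, with a median of 2049 UMIs, held 16.5.

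**Figure D1:**
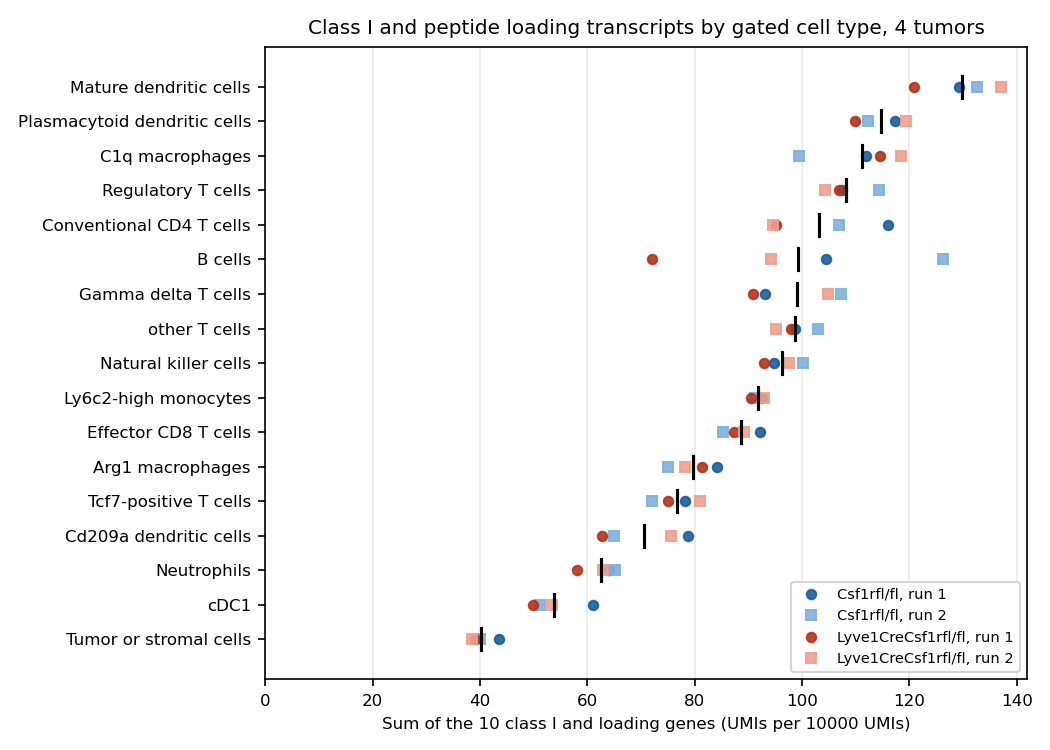
Summed level of the 10 genes (x axis, UMIs per 10000 UMIs) in each gated cell type (rows), with 1 point per tumor coloured by genotype and shaped by run, and a bar for the mean. Mature dendritic cells stand to the right of all others at 129.9 and tumor or stromal cells to the left at 40.2, while most neighbours overlap.

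The classical heavy chain H2-K1 ranged 7.28-fold over the types. It was highest in regulatory T cells, at 26.6, 30.2, 28.6 and 27.2 UMIs per 10000, and lowest in tumor or stromal cells, at 4.14, 4.29, 3.43 and 3.62. Every fitted T cell and natural killer cell type was above every myeloid type other than mature dendritic cells, plasmacytoid dendritic cells and C1q macrophages. The step from Tcf7-positive T cells (19.2 ± 1.73) to Ly6c2-high monocytes (14.1 ± 0.492) did not overlap.

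The other classical chain, H2-D1, had a narrow range of 2.61-fold and another order. It was highest in mature dendritic cells, at 25.9, 23.1, 24.1 and 23.4, and lowest in cDC1, at 11.5, 8.28, 8.97 and 8.31. No step between its 13 pairs of neighbours was free of overlap. Tumor or stromal cells, lowest for H2-K1, had 15.8, 11.8, 14.5 and 11.5 UMIs per 10000 of H2-D1, which overlapped the 15.7, 12.0, 14.3 and 12.7 of effector CD8 T cells.

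The non-classical chain H2-Q7, a Qa-2 gene, had the widest range of the 10. Its mean was highest in plasmacytoid dendritic cells, at 10.3, 7.60, 9.43 and 9.81, and lay between 5.22 and 9.87 in every tumor of every fitted T cell and natural killer cell type. Ly6c2-high monocytes had 1.96, 1.73, 1.98 and 1.92, cDC1 had 1.99, 1.30, 1.07 and 1.42, and tumor or stromal cells had 0.161, 0.183, 0.120 and 0.0794. These T cell and natural killer cell types did not overlap with C1q macrophages (3.91 ± 0.530), the highest myeloid type outside plasmacytoid and mature dendritic cells. The ratio of the highest to the lowest mean was 68.3. Depth per cell differed between the types, and in a summed share deep cells weigh more. With each cell thinned to 1500 UMIs, which weights cells equally, and shallower cells left out, the ratio was 32.1. Regulatory T cells (11.28 UMIs per 10000) then lay above plasmacytoid dendritic cells (9.41), and tumor or stromal cells were at 0.351.

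H2-T23 encodes Qa-1, the ligand of the inhibitory receptor NKG2A. It stood apart in plasmacytoid dendritic cells, at 9.06, 9.11, 9.35 and 7.67 UMIs per 10000. The next types were mature dendritic cells, at 4.70, 4.62, 4.08 and 4.70, and Cd209a dendritic cells, at 5.07, 3.75, 3.75 and 5.19, so no tumor of any other fitted type reached the lowest plasmacytoid value. Tumor or stromal cells were again lowest, at 0.968, 1.04, 1.05 and 0.771.

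The light chain B2m was the most abundant transcript of the set. It was at 46.2, 48.9, 42.6 and 51.6 UMIs per 10000 in mature dendritic cells and at 41.9, 42.4, 46.8 and 52.2 in C1q macrophages, which overlapped each other and lay above all other fitted types. Cells of cDC1, at 17.7, 15.0, 12.8 and 17.6, and tumor or stromal cells, at 16.2, 16.2, 14.3 and 16.6, were lowest. Against the sum of the 4 heavy chains, B2m had a ratio from 0.562 ± 0.0715 in plasmacytoid dendritic cells to 1.07 ± 0.129 in Arg1 macrophages. Such a ratio compares types with each other, since capture at the 3′ end may differ between genes and these counts are not scaled by length.

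The transporter genes were low everywhere and highest in regulatory T cells. Tap1 was there at 3.42, 4.01, 3.09 and 3.70 and Tap2 at 1.71, 2.20, 1.39 and 1.94 UMIs per 10000. Tap1 was lowest in tumor or stromal cells (0.960 ± 0.172) and Tap2 in neutrophils (0.549 ± 0.104). Tapbp was highest in plasmacytoid dendritic cells, at 3.67, 5.37, 3.47 and 4.68, and lowest in tumor or stromal cells, at 1.07, 1.58, 0.951 and 1.48. None of the 3 genes had a step between neighbours without overlap.

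Psmb8 was set apart in 2 dendritic cell types. Mature dendritic cells had 14.1, 10.7, 13.8 and 10.9 UMIs per 10000 and cDC1 had 13.9, 10.4, 13.95 and 9.34, whereas the next type, Cd209a dendritic cells, had 8.06, 6.33, 8.10 and 7.12. As shares of RNA, the cDC1 thus combined the lowest mean of H2-D1 and B2m with the second highest of the immunoproteasome gene. For B2m that mean (15.79) was close to the 15.83 of tumor or stromal cells, and the 2 types overlapped. Per cell, the deep cDC1 held 18.2 UMIs of B2m and 10.7 of H2-D1, against 17.8 and 10.3 in Cd209a dendritic cells. Neutrophils had 3.06, 1.63, 2.13 and 1.40. The transactivator Nlrc5 was scarce, from 1.29 ± 0.247 in mature dendritic cells to 0.286 ± 0.0805 in tumor or stromal cells, and C1q macrophages, rich in heavy and light chain, had only 0.494 ± 0.122.

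**Figure D2:**
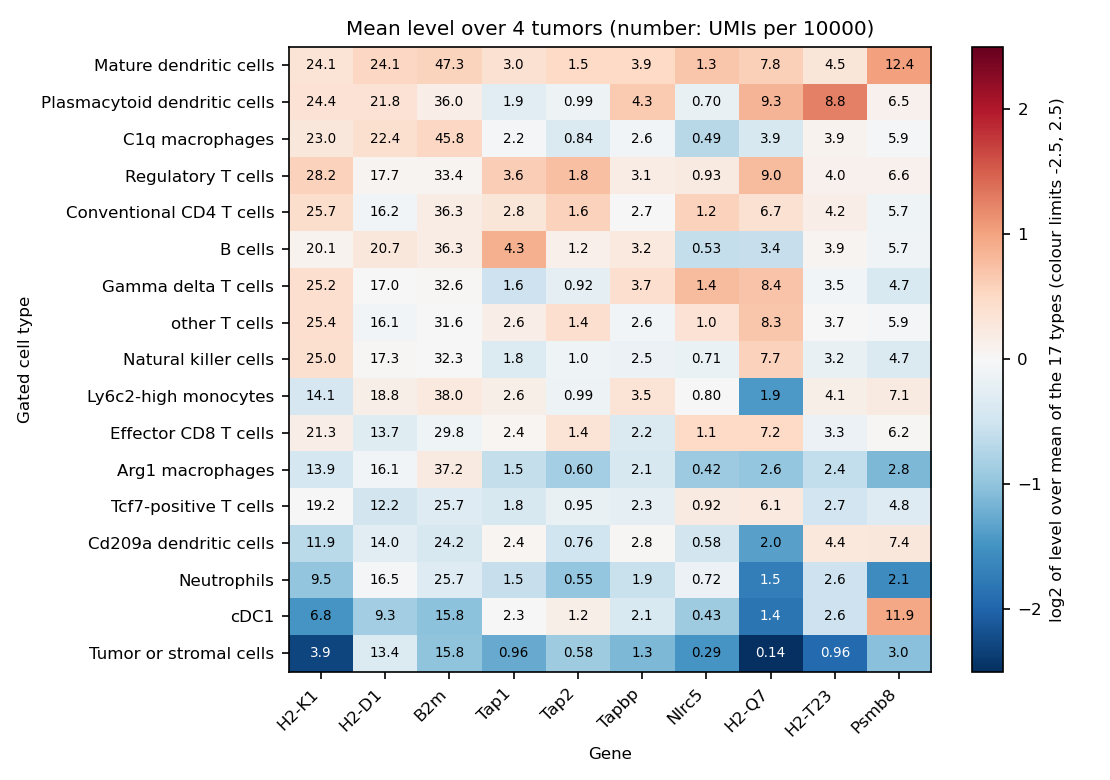
Mean level over the 4 tumors of each gene (columns) in each gated cell type (rows), with the number giving UMIs per 10000 and the colour the log2 ratio to the mean of the 17 types. H2-Q7 separates T cells and natural killer cells from most myeloid types, Psmb8 is highest in mature dendritic cells (12.4) and cDC1 (11.9), and H2-T23 is highest in plasmacytoid dendritic cells (8.80).

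The balance of the classical chains followed lineage. H2-K1 UMIs exceeded H2-D1 UMIs in every tumor of the T cell and natural killer cell types, with a ratio of 1.54, 1.83, 1.47 and 1.54 in conventional CD4 T cells and of 1.31, 1.55, 1.33 and 1.63 in natural killer cells. The mean ratio was near 1 in mature dendritic cells (1.002 ± 0.141), C1q macrophages (1.03 ± 0.0903) and plasmacytoid dendritic cells (1.13 ± 0.202). In each of these types it was below 1 in both tumors of run 1 and above 1 in both of run 2. In mature dendritic cells it was 0.8735, 1.101, 0.8893 and 1.145. It was below 1 in every tumor of Arg1 macrophages (0.870 ± 0.0632), Cd209a dendritic cells (0.853 ± 0.0455), Ly6c2-high monocytes (0.758 ± 0.0853), cDC1 (0.743 ± 0.111) and neutrophils (0.580 ± 0.0317). Tumor or stromal cells, at 0.262, 0.365, 0.236 and 0.315, lay below every tumor of every other type. The ratio of H2-Q7 to H2-D1 was between 0.333 and 0.587 in every tumor of the fitted lymphocyte types, at most 0.187 in those of monocytes, both macrophage types, Cd209a dendritic cells, neutrophils and cDC1, and at most 0.0156 in tumor or stromal cells. In the 31 B cells, which were not fitted, the ratio of H2-Q7 to H2-D1 was 0.0833, 0.261, 0.0455 and 0.287. These ratios lie within 1 tumor and 1 cell type and so need no scaling factor.

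**Figure D3:**
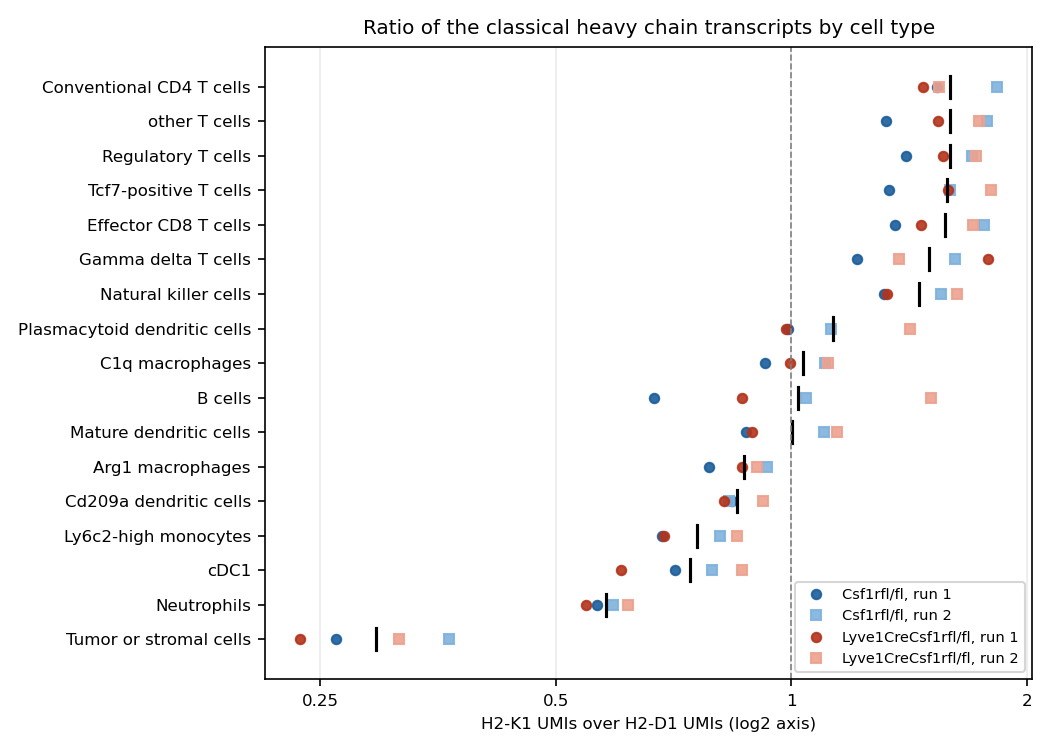
Ratio of H2-K1 to H2-D1 UMIs (x axis, log2 scale) in each gated cell type, 1 point per tumor and a bar for the mean, with a dashed line at equal counts. T cells and natural killer cells lie to the right of the line in every tumor, and neutrophils and tumor or stromal cells to its left.

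The genes that followed a member most closely over 56 points (14 types in 4 tumors, which share libraries and depth) are given as a description. Among 3193 genes, H2-K1 was most like H2-Q7 (Pearson r = 0.954 of log2 levels), then H2-Q4 and H2-Q6 (0.910 each), Foxn3 and Son. H2-Q7 was most like H2-Q6 (0.959), which shares 26.9% of its 3′ words with other genes, H2-Q7 among them. The list for Tap1 included Tap2 (0.791), Aftph, Dtx3l and Mob1a, and for Nlrc5 it was Arhgap45 (0.851), Pbxip1, Dusp11, Stat3 and Birc2. Among pairs of members, H2-D1 and Tap2 had the lowest value (0.010) and H2-K1 and H2-D1 had 0.561.

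To ask how neighbouring cell types differed, UMIs were summed per tumor and type and compared within tumors by the quasi-likelihood test of edgeR, with p-values adjusted over all genes tested (Benjamini-Hochberg) and a threshold of 0.05. Fold changes are on the log2 scale with their standard error (SE). Because the gates used other genes of the same cells, many genes differ in each contrast, and the share of all tested genes called is given beside the count of members. Beside the members stand counts for 35 other genes of the pathway (of 37 listed, 2 were not in the table) and for 20 interferon response genes.

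Mature dendritic cells had more of all 10 genes than Cd209a dendritic cells, the conventional dendritic cells marked by Cd209a and Flt3, where 30.2% of 7864 genes were called higher and 30.5% lower. H2-Q7 differed most, with 7.57, 8.22, 7.14 and 8.12 UMIs per 10000 against 2.86, 1.196, 1.45 and 2.49 (2.33, SE 0.15, adjusted p = 1.717e-10 by edgeR). Nlrc5 (1.44, SE 0.14), H2-K1 (1.30, SE 0.08), Tap2 (1.27, SE 0.11), B2m (1.25, SE 0.06), H2-D1 (1.07, SE 0.07) and Psmb8 (1.02, SE 0.07) followed. Each of these 7 was higher in all 4 tumors. The median over the members was 1.16, against 0.01 over all genes. The scaling factors moved this contrast by 0.275, and H2-T23 (0.33, SE 0.09, adjusted p = 0.00404) fell to 0.05 on library totals and was higher in only 2 of 4 tumors.

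Of the other pathway genes in this contrast, 18 of 31 were higher and 10 lower. The proteasome activator genes Psme1 (1.25) and Psme2 (2.07), the immunoproteasome genes Psmb9 (1.04) and Psmb10 (0.33, and 0.05 on library totals), the tapasin relative Tapbpl (2.71), the lipid-presenting Cd1d1 (3.71) and the transcription factors Irf1 (1.65) and Rela (1.11) were among those higher. The chaperones of the endoplasmic reticulum Calr (-1.54), Canx (-0.53), Pdia3 (-1.24) and Hspa5 (-1.51) and the neonatal Fc receptor Fcgrt (-3.30) were lower. The interferon response genes did not move as the members did: 12 of 20 were lower, among them Ifit3 (-1.42) and Cxcl10 (-1.35), and 5 were higher, Cxcl9, Gbp2, Gbp4, Gbp5 and Isg15. Summed T cell markers, at 0.440 to 0.946 UMIs per 10000 in mature and 0.483 to 1.01 in Cd209a dendritic cells, overlapped.

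In cDC1 against Cd209a dendritic cells, 2 members were higher and 5 lower, with 18.1% and 18.0% of 6518 genes called higher and lower. Psmb8 (0.81, SE 0.08, adjusted p = 3.981e-07) and Tap2 (0.79, SE 0.15, adjusted p = 0.0003962) were higher in all 4 tumors. H2-K1 (-0.67, SE 0.08), H2-T23 (-0.62, SE 0.10), B2m (-0.48, SE 0.06), H2-D1 (-0.46, SE 0.07) and Tapbp (-0.27, SE 0.10, adjusted p = 0.0498) were lower in all 4. Psmb8 and Tap2 thus lay on the other side from B2m and the heavy chains H2-K1, H2-T23 and H2-D1, while the heavy chain H2-Q7 was not called. Of 26 other pathway genes, 9 were called higher and 7 lower. Psmb9 (1.14), Psme1 (0.88), Psme2 (0.44), Tapbpl (1.02) and the chaperone Pdia3 (0.80) were among those higher. Of the interferon genes, 19 of 20 were lower and 1, the chemokine Cxcl9, was higher (2.53).

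C1q macrophages against Ly6c2-high monocytes gave another split, with 2 members higher and 5 lower where 13.9% and 18.7% of 9477 genes were called. H2-K1, at 23.9, 20.2, 23.7 and 24.1 UMIs per 10000 against 13.99, 13.9, 13.8 and 14.9, was higher (0.57, SE 0.08, adjusted p = 4.742e-05), as was H2-Q7 (0.90, SE 0.09, adjusted p = 9.162e-07). Nlrc5 (-0.75, SE 0.13), Tapbp (-0.56, SE 0.09), Psmb8 (-0.41, SE 0.08), Tap2 (-0.39, SE 0.12) and Tap1 (-0.34, SE 0.09) were lower, Tap2 in 3 of 4 tumors and the others in all 4. H2-D1 (0.12), B2m (0.14) and H2-T23 (-0.19) did not pass. The scaling factors moved this contrast by -0.142. As levels, B2m was at 41.9 to 52.2 UMIs per 10000 in C1q macrophages and 36.3 to 39.5 in monocytes, which did not overlap. H2-D1 was at 25.9, 18.3, 23.8 and 21.7 against 20.45, 17.1, 20.05 and 17.5. The values of H2-T23 overlapped. Without the tumor as a block 4 members were called in place of 7, and Psmb8, Tap2 and Tap1 were not among them. Of 32 other pathway genes, 4 were higher (Fcgrt, H2-Q6, H2-M3 and H2-Q4) and 12 lower, among them Psmb10 (-0.62), Irf1 (-0.72) and Jak2 (-0.97), and 18 of 20 interferon genes were lower. Platelet markers stood at 2.10 to 4.41 UMIs per 10000 in C1q macrophages and 0.129 to 0.494 in monocytes, and their part in the result was not tested.

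Tumor or stromal cells had less of all 10 genes than Ly6c2-high monocytes, where 40.3% of 10639 genes were called higher and 41.2% lower. H2-Q7 (-4.13, SE 0.16, adjusted p = 1.555e-13), H2-T23 (-2.42, SE 0.10) and H2-K1 (-2.20, SE 0.09) differed most and H2-D1 least (-0.82, SE 0.08, adjusted p = 6.496e-08), and all were lower in all 4 tumors. The median was -1.77 over the members, -3.44 over the interferon genes, of which 20 of 20 were lower, and -0.02 over all genes. The scaling factors moved this contrast by -0.327. On library totals the medians were -1.44 over the members, -3.12 over the interferon genes and 0.31 over all genes. As levels, the mean of H2-D1 was 13.4 UMIs per 10000 against 18.8 in monocytes. Of 31 other pathway genes, 24 were lower, among them the interferon gamma receptor chains Ifngr1 (-2.63) and Ifngr2 (-3.69) and the kinase Jak2 (-3.70), and 3 were higher (Mr1, Psme3 and Canx). The 16 cells in which keratin and Epcam UMIs exceeded those of matrix genes had 31.6 UMIs per 10000 of the 10 genes together, the 192 in which matrix genes led had 41.4, and 1 cell had equal counts. Scrublet called 39.2% of tumor or stromal cells doublets and 81.3% carried cell cycle markers, and all 10 members were called lower without either. The sizes of some members changed when such cells were left out. As 81.3% of the 209 cells were cycling, few remained without them. The limit of 20 cells per tumor was not applied to that fit, nor was the fit repeated on library totals. A cell was called cycling when at least 2 cell cycle markers had a UMI, whatever its depth. Deep cells meet this more readily, and the median here was 47311 UMIs per cell. The part of depth in these changes was not tested. Without cycling cells H2-Q7 was at -2.80 (SE 0.40), H2-T23 at -1.64 (SE 0.21), H2-K1 at -1.51 (SE 0.16) and H2-D1 at -0.43 (SE 0.13), whereas Tap1 was at -1.92 (SE 0.22, from -1.75), Psmb8 at -1.54 (SE 0.17, from -1.59) and Tapbp at -1.64 (SE 0.20, from -1.79). Without doublets H2-Q7 was at -5.09 (SE 0.17).

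In neutrophils against monocytes, the scale decided the sign. With edgeR's scaling factors, 6 members were higher (H2-D1, Nlrc5, H2-Q7, H2-K1, B2m and H2-T23) and only Psmb8 was lower, where 34.7% and 35.5% of 9612 genes were called. These factors moved the contrast by 0.935, and on library totals 9 members had the opposite sign and 8 of the 10 were called lower. As levels, H2-K1 was at 10.2, 9.54, 8.94 and 9.53 UMIs per 10000 in neutrophils against 13.99, 13.9, 13.8 and 14.9 in monocytes. Neutrophil markers such as S100a8 and S100a9 took 1300 to 1661 of 10000 UMIs in neutrophils, and their part in the shift was not tested. On both scales Psmb8 (-0.89, SE 0.11, adjusted p = 6.536e-06; -1.83 on library totals) and Psmb9 (-0.36; -1.30) were lower, and H2-Q10, a heavy chain gene, was higher (5.32, SE 0.22, adjusted p = 2.817e-11; 4.39). H2-Q10 stood at 1.45, 1.75, 1.65 and 1.66 UMIs per 10000 in neutrophils and at 0.111, 0.0475, 0.0624 and 0.0943 in monocytes, and its 486 words at the 3′ end occurred in no other gene. With the factors, 11 of 31 other pathway genes were higher and 13 lower, and 14 of 20 interferon genes were higher and 5 lower. The median of the interferon genes was 0.59 with the factors and -0.35 on library totals.

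Among T cells, effector CD8 T cells had more of 6 members than Tcf7-positive T cells and less of 0, where 7.42% of 8885 genes were called higher and 7.89% lower. Tap2 (0.50, SE 0.11, adjusted p = 0.003458), Tap1 (0.42, SE 0.10), Psmb8 (0.35, SE 0.07), H2-T23 (0.32, SE 0.09), H2-Q7 (0.22, SE 0.07) and B2m (0.19, SE 0.05) passed, each higher in all 4 tumors. H2-K1 (0.13, SE 0.06) and H2-D1 (0.14, SE 0.06) were also higher in all 4 tumors and did not pass. Of 29 other pathway genes 3 were higher and 2 lower, and of the interferon genes 0 of 20 were higher and 8 lower. DESeq2 called 3 members, the fit without the tumors as a block called 1, and the fit without the Csf1rfl/fl tumor of run 2 called 3.

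Natural killer cells against effector CD8 T cells split the members 4 and 4. H2-D1 (0.41, SE 0.06, adjusted p = 0.000292), H2-K1 (0.30, SE 0.05), Tapbp (0.26, SE 0.09) and B2m (0.18, SE 0.05) were higher, and Nlrc5 (-0.59, SE 0.10, adjusted p = 0.0007019), Tap2 (-0.38, SE 0.09), Tap1 (-0.33, SE 0.08) and Psmb8 (-0.32, SE 0.07) were lower, where 13.9% and 11.5% of 9421 genes were called. Of 30 other pathway genes, 12 were higher, Ifngr1 most (1.40), and 3 were lower, Psmb9, Psme2 and H2-T22. Of the 20 interferon genes 2 were higher and 2 lower. The count of members was 8 here, 4 with DESeq2, 2 without the block and 4 without the Lyve1CreCsf1rfl/fl tumor of run 1.

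Regulatory T cells against conventional CD4 T cells gave no call among the 10 members by edgeR or DESeq2, where 3.88% of 7348 genes were called higher and 4.89% lower. At an unadjusted p under 0.05, 3 members passed by edgeR and 0 by DESeq2. Among the differences were those of Nlrc5 (-0.49, SE 0.19), H2-Q7 (0.34, SE 0.11, adjusted p = 0.0757 by edgeR) and B2m (-0.21, SE 0.07, adjusted p = 0.0597 by edgeR). Of 29 other pathway genes 0 were higher and 1 lower, and of the interferon genes 9 of 20 were lower and 1 higher in regulatory T cells.

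**Figure D4:**
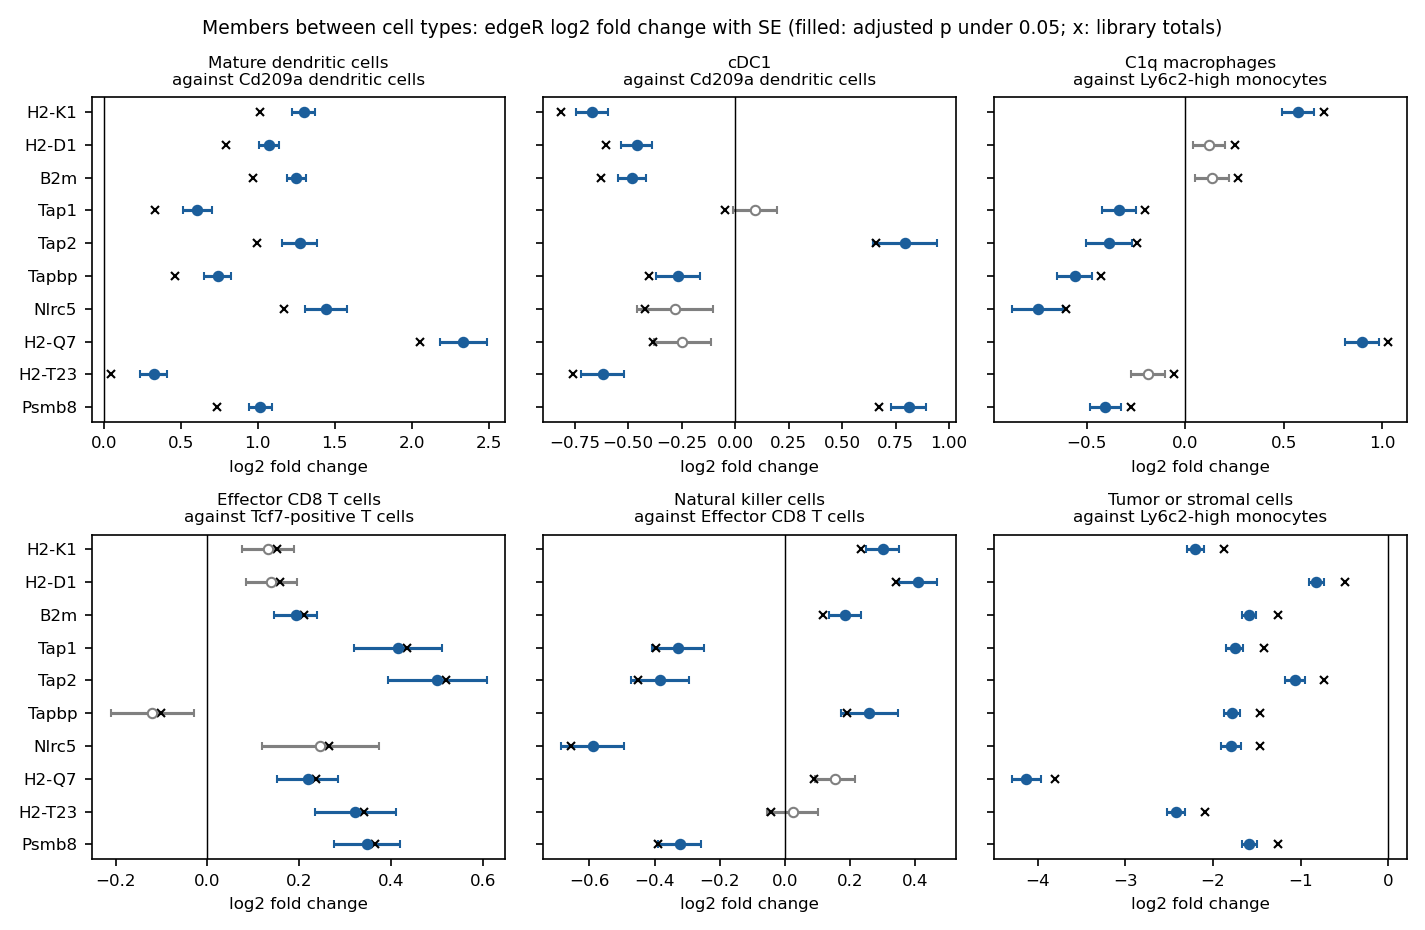
Log2 fold changes of the 10 genes in 6 contrasts of cell types, as edgeR estimates with SE (circles, filled where adjusted p is under 0.05) and on library totals (crosses). All 10 lie above 0 in mature dendritic cells and below 0 in tumor or stromal cells, whereas the cDC1, C1q macrophage and natural killer cell contrasts split the set.

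To ask whether deletion of Csf1r in Lyve1-expressing cells went with another class I level in the cells that remained, the genotypes were compared within each of the 14 types, with n = 2 tumors per genotype. No member was called in any of 140 tests by edgeR's quasi-likelihood test or by DESeq2, and 0 passed at an unadjusted p under 0.05 with either. With the run as a block, 3 of 140 passed unadjusted, B2m in C1q macrophages (0.25, adjusted p = 0.445 by edgeR), H2-Q7 in tumor or stromal cells (-0.73, adjusted p = 0.970 by edgeR) and Psmb8 in Arg1 macrophages (-0.59, adjusted p = 0.385 by edgeR), and none after adjustment. In Arg1 macrophages summed neutrophil markers stood at 15.3 and 16.4 UMIs per 10000 in Csf1rfl/fl and at 35.8 and 31.9 in Lyve1CreCsf1rfl/fl tumors, and their part was not tested. Of all genes tested, 0.234% were called in Arg1 macrophages, 0.116% in plasmacytoid dendritic cells, 0.0657% in conventional CD4 T cells, 0.0146% in Tcf7-positive T cells and 0.0123% in C1q macrophages, and 0 in the other 9 types. Both tumors of a run were captured together, and with the run as a block 353 genes were called over the 14 types in place of 21. With 1 tumor left out, where 1 genotype has a single tumor and the spread comes from the other, it was 174 to 489.

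As values, B2m in C1q macrophages was at 41.9 and 42.4 UMIs per 10000 in Csf1rfl/fl and 46.8 and 52.2 in Lyve1CreCsf1rfl/fl tumors, which did not overlap (0.25, SE 0.31, adjusted p = 0.998). In these cells summed monocyte markers, at 25.2 and 23.9 against 32.01 and 29.44, and platelet markers, at 4.41 and 4.25 against 3.01 and 2.10, did not overlap between genotypes either, and their part was not tested. H2-K1 in the same cells, at 23.9 and 20.2 against 23.7 and 24.1, overlapped (0.13, SE 0.30). Over the 140 tests the Lyve1CreCsf1rfl/fl value was lower in 95 and higher in 45, with a median difference of -0.04 and a median SE of 0.28, where over all genes 52133 values were lower and 53019 higher. The extremes were H2-Q7 in tumor or stromal cells (-0.75, unadjusted p = 0.057, the lowest) and Tap1 in Arg1 macrophages (0.51). The members share tumors, so these 140 values are not independent. Of the other pathway genes 0 of 391 tests and of the interferon genes 0 of 273 were called. A joint fit over the types, added after the values were seen, asked whether the genotype difference varied between types and called 0 of 11581 genes, with 403 at an unadjusted p under 0.05 and the lowest member p at 0.0779 (Tap1). In simulated data of this size the test recovered 68% of genes changed by 1 on the log2 scale in neutrophils and 25% in conventional CD4 T cells, so differences of that size could be missed. The simulated counts had a fixed dispersion and no run effect, and only more abundant genes were changed. Tap2 (0.549) and Nlrc5 (0.724 UMIs per 10000) in neutrophils lay below that abundance. Recovery of members in the real data could therefore be lower.

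More member tests were called between runs than between genotypes. The comparison of runs, with genotype in the fit, was chosen after the values were seen, and the capture and the mice of a run cannot be told apart. It called 25 of 140 member tests, 19 lower and 6 higher in run 2, where over all types 6.636% of tests on all genes were called, 5190 lower and 1788 higher. The scale decided this split. On library totals 15 member tests were higher and 10 lower, with 5614 higher and 2692 lower over all genes, whose median moved from 0.013 to 0.174. Psmb8 was lower in run 2 in 10 of 14 types (median -0.59; 7 types on library totals), for example in mature dendritic cells, at 14.1 and 13.8 UMIs per 10000 in run 1 and 10.7 and 10.9 in run 2 (-0.56, SE 0.07, adjusted p = 8.722e-05 by edgeR). H2-D1 was lower in 7 types (median -0.37) and in 3 on library totals, whereas Tapbp was higher in 4 (median 0.35) and in 6 on library totals, and Nlrc5 in 2 and 3. H2-Q7 was lower in 2 types with edgeR's factors and in 0 on library totals. Tap2, Tap1 and B2m were called in 0 types with the factors and were higher in 3, 2 and 1 on library totals, and H2-K1 and H2-T23 were called in 0 on both scales.

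Of 391 tests of other pathway genes, 23 were higher and 21 lower in run 2, and of 273 tests of interferon genes 27 were higher and 10 lower. Psmb9 (lower in 6 types), Psme2 (5) and Psmb10 (4) were on the side of Psmb8, and Hspa5 (4) was higher in run 2. Of all genes, run 2 differed from run 1 in 12.7% in effector CD8 T cells, 12.0% in Ly6c2-high monocytes, 10.1% in mature dendritic cells, 9.23% in regulatory T cells, 8.33% in neutrophils, 7.61% in tumor or stromal cells, 6.76% in cDC1, 4.77% in C1q macrophages, 3.89% in natural killer cells, 3.06% in plasmacytoid dendritic cells, 0.432% in Cd209a dendritic cells, 0.390% in Arg1 macrophages, 0.0329% in conventional CD4 T cells and 0 in Tcf7-positive T cells. DESeq2 called 8 member tests. No member's run difference varied between types past the threshold, or at an unadjusted p under 0.05, in a joint fit by edgeR that called 11 genes. Each run held a tumor of each genotype, so the genotype comparison was balanced over runs.

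**Figure D5:**
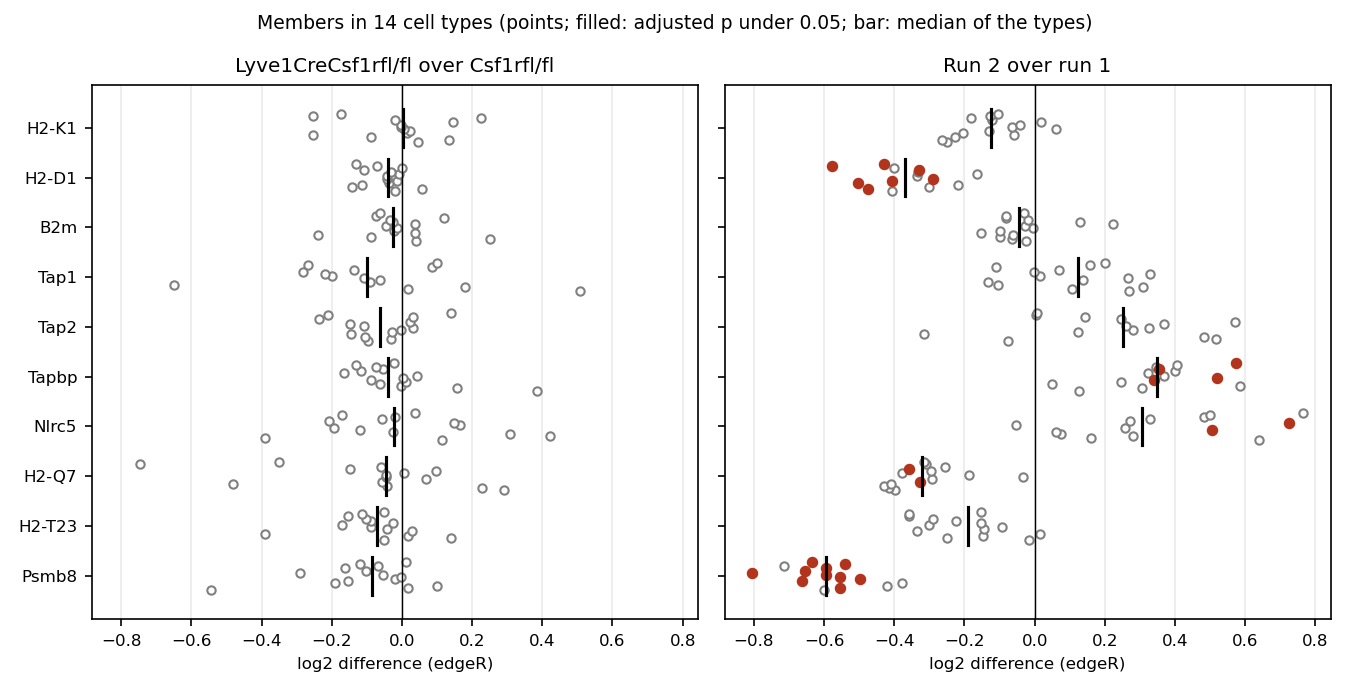
Log2 differences of the 10 genes between genotypes (left) and between runs (right), 1 point per cell type for 14 types, filled where adjusted p is under 0.05, with a bar for the median over types. The genotype values lie around 0 with no filled point, while Psmb8 and H2-D1 lie below 0 in all 14 types between runs, both with edgeR's scaling factors.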

How the data were processed

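Single-cell RNA and hashtag libraries of 2 runs were made with the Chromium Single Cell 3′ v2 kit. The authors deposited raw UMI counts per gene and cell, mapped to mm10 with Cell Ranger 6.0.1 (per the labels, Seurat was used after it), which discards reads that match several genes. The annotation version is not given in the sources used here. The authors kept singlets under a limit of mitochondrial reads and removed lymphocyte clusters specific to the Lyve1CreCsf1rfl/fl tumor of run 2, which could change lymphocyte values of that tumor. Their choice was followed by keeping the cells named in the deposited table of corrected values, whose score unit (counts rescaled by a regression on depth) was used for no measurement. All columns of per-sample values were used (0 left out).

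Each cell went to the tumor of its higher centered hashtag count. Cell types were gated on the mean of log1p marker levels, with at least 2 markers and thresholds from 0.25 (tumor or stromal cells) to 1.5 (neutrophils) set after the marker distributions had been seen. Cells with markers of several lineages were left out. Scrublet doublets were removed only as an alternative, since the authors had already kept singlets. The hashtags tell samples apart and cannot mark doublets within a tumor, and Scrublet called 21.26% of kept cells in run 1 and 12.76% in run 2. UMIs were summed per tumor and type, since cells are not replicates. Types with at least 20 cells in each tumor were fitted with edgeR 4.0.16 (filterByExpr, TMM factors, quasi-likelihood test, Benjamini-Hochberg adjustment over all genes tested, threshold 0.05; R 4.3.3), with no covariate for genotype and with the tumor as a block between types. DESeq2 1.42.0 was an alternative, as were no block or a block, library totals, no filter, each tumor left out, a hashtag margin of 3, no cycling cells, and another denominator. Levels were computed in Python 3.11.15 with pandas 2.3.3. Likeness used log2 of UMIs per 10000 with a pseudocount of 0.1. The fits were tested on simulated data. The labels pair the 2 tumors of a run, which share 1 library, and their deviations from the genotype means correlated at 0.132 to 0.628 over the 14 types (median 0.492). Tumors were separate mice. The p-values between genotypes rest on the spread between mice and runs together, those between types on the spread of differences within tumors, and those between runs on the spread left after genotype and run.

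All 10 members are named whatever their values. Other genes named are from a list of 37 pathway genes and 20 interferon genes, the 5 genes nearest to 4 of the members, and marker genes. One item of these lists is not reported here. The members and lists were chosen with earlier results of these data known. The test between runs and the joint fit over types were chosen after the data had been seen.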

Additional observations from a re-analysis of the deposited data

How the results depend on the processing

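Of 880 values of single members in the contrasts of cell types under alternatives, 769 kept direction and side of the threshold, 73 lost the call, 17 gained it and 21 changed sign. Of the changes of sign, 9 were in neutrophils against monocytes on library totals, with H2-K1 -0.57, H2-D1 -0.19, B2m -0.57, Tap1 -0.74, Tap2 -0.84, Tapbp -0.89, Nlrc5 -0.15, H2-Q7 -0.33 and H2-T23 -0.67. The 12 others were called in neither fit. On library totals they were H2-T23 in natural killer cells (-0.04) and Tap1 in cDC1 (-0.05), without a filter Tapbp in neutrophils (-0.04), without doublets Tap2 in regulatory T cells (-0.05), without cycling cells H2-T23 in natural killer cells (-0.02) and in regulatory T cells (0.16), and with 1 tumor left out, as ranges, H2-T23 in natural killer cells (-0.05 to 0.07) and, in regulatory T cells, H2-K1 (-0.03 to 0.14), H2-D1 (-0.01 to 0.1), Tap2 (-0.08 to 0.25) and Tapbp (-0.01 to 0.17). No member was called between genotypes under any alternative. With 1 tumor left out, 1 genotype has a single tumor, which is assumed to vary like the other genotype. The count of all genes called between genotypes was 21, and 38 on library totals, 310 without a filter, 11 with DESeq2 and 174 to 489 with 1 tumor left out (489 without Csf1rfl/fl replicate 2). The cause was not tested.

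The contrasts of types, with the tumor as a replicate block, called 55 member tests. With no replicate block there were 36, with 4 in place of 7 in C1q macrophages, 1 in place of 6 in effector CD8 T cells and 2 in place of 8 in natural killer cells, and with 1 tumor left out 45 to 52. With DESeq2, 3 members were called in effector CD8 T cells and 4 in natural killer cells. With 1 tumor left out the counts were 5 to 7 in C1q macrophages, 3 to 4 in effector CD8 T cells, 4 to 8 in natural killer cells, 5 to 8 in neutrophils, 9 to 10 in mature dendritic cells, 6 to 7 in cDC1, 10 in tumor or stromal cells and 0 to 1 in regulatory T cells. In regulatory T cells 1 member was called on library totals, without a filter or without cycling cells. Between genotypes, a replicate block for the run gave 353 genes in place of 21 and no member call. The 25 member calls between runs were 8 with DESeq2. The summed level of mature dendritic cells over tumor or stromal cells was 3.24 (mean of 4 tumors) and 2.82 with ribosomal, mitochondrial, Malat1 and Gm42418 UMIs left out of the denominator. With 2 tumors per genotype and 28 to 57 conventional CD4 T cells per tumor, counts limit the genotype comparison in that type.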
